A study of Homo sapiens with 4 samples.

Results

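The large ribosomal subunit protein genes are the 46 nuclear genes from RPL3 to RPLP2 whose products build the protein part of the cytosolic 60S subunit. IGF2BP2 binding to their RNA was measured by iRIP-seq, an ultraviolet crosslinking immunoprecipitation followed by sequencing, in Jurkat cells, a human T-cell acute lymphoblastic leukemia (T-ALL) line. The comparison rests on 2 libraries precipitated with an antibody against IGF2BP2, called iRIP replicates 1 and 2, and the 2 input libraries were not analysed here. No treatment, knockdown or genotype separated the iRIP libraries, and nothing in the labels says whether they came from separate cultures, so their spread may be technical. The 46 members were taken by gene symbol from 20056 protein-coding genes of the RefSeq table, and each was matched to its Ensembl identifier by position on GRCh38. A member's sense peaks were the peaks under that identifier whose main region was a coding sequence (CDS), an untranslated region (UTR), a noncoding exon or an intron.

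Ribosomal protein mRNAs are short, abundant and built alike. Most begin with a 5′ terminal oligopyrimidine (TOP) tract, a cytosine followed by a run of pyrimidines, through which growth signalling and the La-related protein LARP1 control their translation. IGF2BP2 is a cytoplasmic RNA binding protein and a reader of N6-methyladenosine that is known for stabilising its target mRNAs. Several large subunit genes are known from T-ALL: RPL5, RPL10 and RPL11 are mutated and RPL22 is deleted in part of the patients. Large subunit genes also host many small nucleolar RNAs (snoRNAs) in their introns and have left many pseudogene copies in the genome.

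Replicate 1 listed 145715 peaks and replicate 2 listed 137934, and 74237 and 77288 of them were sense peaks. Peak height is given in tags, with no adjustment for sequencing depth or for the abundance of the RNA. Heights of peaks longer than 51 nt, multiplied by their number of 50 nt bins, were whole within 0.01 for 100% of such peaks, so they read as means over bins, and a long peak can hold a bin above its listed height. No listed peak was below 4 tags in replicate 1 or below 5 tags in replicate 2. The shortest length, 51 nt, was that of 97.1% and 94.7% of the peaks. The number of reads behind each library is unknown. The labelled cell type was checked against its markers: 9 of 11 T cell genes, CD3D, LCK and TCF7 among them, had an exonic sense peak in both libraries, compared with 1 of 12 genes of other blood lineages, PAX5.

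Nearly every large subunit gene carried IGF2BP2 peaks. A sense peak was listed for 43 of the 46 members in replicate 1 (93.5%, 95% Wilson interval 82.5 to 97.8) and for 46 in replicate 2 (100%, 92.3 to 100), while 56.7% and 55% of all protein-coding genes had one. All 43 members with a peak in replicate 1 had one in replicate 2, against 45.6% of protein-coding genes with a peak in both libraries. By their own identifiers, RPL17, RPL22 and RPL36AL were the members without a sense peak in replicate 1, and each had 1 peak in replicate 2, of 7, 7 and 5 tags. Peaks at the same position were found in both libraries for 39 members (84.8%, 71.8 to 92.4), compared with 15.5% of all protein-coding genes. RPL12, RPL34, RPL35A and RPL37A had peaks in both libraries that did not overlap, and all 4 peaks of RPL37A in replicate 2 lay over 1000 nt outside its RefSeq gene interval.

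Many of these peaks were tall. A height of 10 tags was reached in both libraries by 31 members (67.4%, 53.0 to 79.1), compared with 3.84% of protein-coding genes. At 20 tags the count was 15 members (32.6%, 20.9 to 47.0) against 0.459%, and at 30 tags it was 9 members (19.6%, 10.7 to 33.2) against 0.11%. Those 9, RPL35, RPL31, RPL27A, RPL23A, RPL3, RPL38, RPL4, RPLP2 and RPL13, were among 22 protein-coding genes that did so. RPL38 did so with peaks at different positions, and its tallest shared peak had 26 and 43 tags. Of the 11 T cell genes, 8 reached 10 tags in both libraries (72.7%), 1 reached 20 tags and 0 reached 30 tags. Height is not set against an input here, so the abundance of an mRNA and the strength of binding cannot be told apart.

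**Figure D1:**
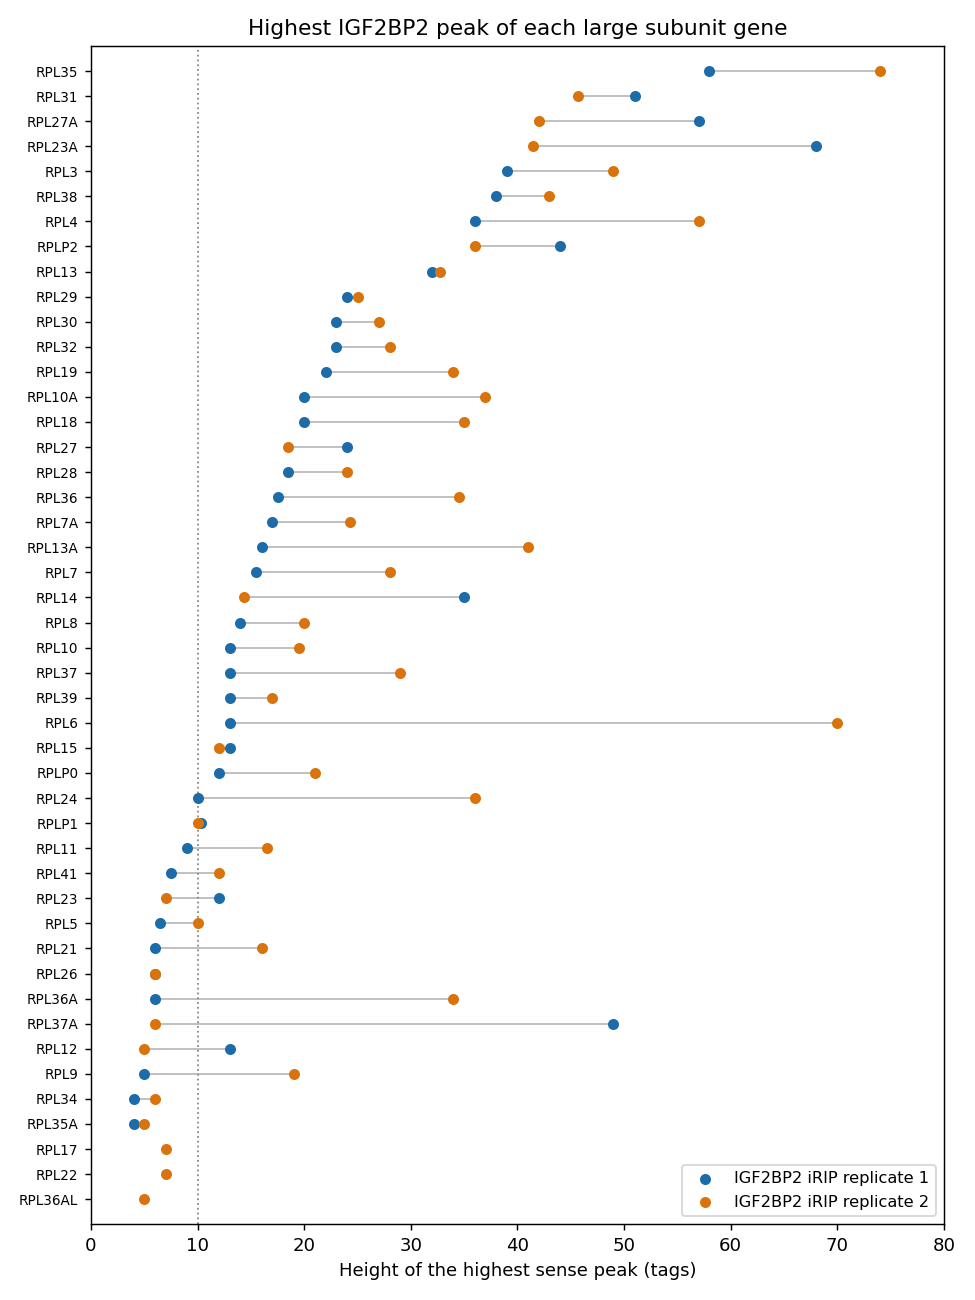
Height in tags of the highest sense peak of each of the 46 large subunit genes in iRIP replicate 1 (blue) and replicate 2 (orange), ordered by the lower of the 2 values; the dotted line marks 10 tags. RPL35 leads with 58 and 74 tags, and RPL17, RPL22 and RPL36AL have a point in replicate 2 only.

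The members had 152 sense peaks in replicate 1 and 153 in replicate 2, a mean of 152.5 ± 0.707 (SD, n = 2). Of these peaks, 3 in replicate 1 and 8 in replicate 2 lay over 1000 nt outside the member's RefSeq gene interval. Peaks per member ranged from 0 to 11 in replicate 1 and from 1 to 12 in replicate 2, with a median of 3 in both. Member peaks had a median height of 10 and 14.3 tags in the 2 libraries, compared with 4 and 5 tags over all sense peaks. Of the member peaks, 52.6% and 61.4% reached 10 tags, against 2.73% and 8.75% of all sense peaks. Peaks longer than 51 nt made up 36.8% and 41.2% of member peaks and 4.93% and 8.24% of all, so heights of members are means over bins more often. The members are compact genes, with a median length of 5034 nt compared with 24092.5 nt for all protein-coding genes. Per 1000 nt of gene the median member had 0.517 peaks in replicate 1 and 0.603 in replicate 2. Across the 46 members the number of peaks in the 2 libraries went together (Spearman's rho = 0.76), and the highest peak did so less closely (rho = 0.61 over the 43 members with peaks in both). The points of both relations share the gene's length and abundance, so they are given as a description. Gene length itself was only weakly related to the number of peaks (rho = 0.21 in replicate 1 and 0.26 in replicate 2).

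The peaks were mainly in the CDS and in the 5′UTR. The CDS held 79 of 152 member peaks in replicate 1 (52.0%, 44.1 to 59.8) and 77 of 153 in replicate 2 (50.3%, 42.5 to 58.1), which is a change of -1.65 points (two-sided Fisher's exact test, p = 0.819). That test takes peaks as its units, and many peaks of the libraries overlap, so it compares these lists and is no replicate test. The mean CDS share was 51.2% ± 1.16 (SD, n = 2), compared with 22.7% ± 4.0 over all sense peaks. The 5′UTR held 24.3% (18.2 to 31.7) and 22.9% (16.9 to 30.1) of member peaks, compared with 2.78% and 3.33% of all sense peaks. Introns held 10.5% and 8.5% of member peaks, against 69.2% and 62.4% of all. The 3′UTR share was small in both sets, at 3.95% and 8.5% of member peaks and 3.65% and 4.0% of all sense peaks. Peaks of small ribosomal subunit genes were spread much as those of the members. The 5′UTR held 23.1% and 20.2% of them, the CDS 51.6% and 50%, and introns 11.0% and 16.3%.

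Part of this contrast went with peak height. Among peaks of at least 10 tags, the CDS share was 60% and 62.8% for the members and 58.5% and 59.9% for all sense peaks, so at this height the members' CDS share was close to that of the list as a whole. The 5′UTR share stayed apart at the same height, at 23.8% and 23.4% for the members against 7.75% and 5.59% for all sense peaks. The intron share also stayed apart, at 6.25% and 3.19% against 25.4% and 26.5%. No member peak of at least 10 tags lay mainly in the 3′UTR in replicate 1, and 1 did in replicate 2, the 17-tag peak of RPL23A. Of the tall member peaks, 25% and 26.6% covered both exonic and intronic sequence, compared with 61.9% and 64.4% of all sense peaks of at least 10 tags. The genes differ in structure, and no test was made between these shares.

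The gene start was the position that most members had in common. The start was taken from the RefSeq promoter table, which holds 39 of the members, and a start peak was a sense peak on the gene's strand over the first 50 nt. Start peaks were found for 27 members in replicate 1, 28 in replicate 2 and 25 in both (64.1%), compared with 3.19%, 4.2% and 1.67% of the 15843 protein-coding genes in the table. Over the 25 members with both, heights ran from 4 to 36 tags with a median of 11 in replicate 1 and from 5 to 49 tags with a median of 15 in replicate 2. Among genes that reached 10 tags in both libraries, 21 of 26 members (80.8%) and 112 of 631 other genes (17.7%) had a start peak in both. Of the other 7 members, whose start was taken from the gene interval and whose strand came from their own peaks, RPL8, RPL23, RPL30 and RPL37 had start peaks in both libraries. RPL23A had a start peak of 68 tags in replicate 1 only, and RPL5 and RPL7 had none.

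The sequence at the start of these genes is shown because it holds the TOP tract that most members share. Each line runs from 10 bases before the start to 20 bases after it on the gene's strand (RefSeq, GRCh38.p14), and capitals mark the unbroken pyrimidine run where the start base is C and at least 4 more pyrimidines follow. RPL35, RPL27A, RPLP2, RPL31, RPL38 and RPL29 have such a run and a start peak in both libraries, RPL12, RPL34 and RPL35A have the run without a start peak, and RPL3 and RPL13 have start peaks in both libraries without a run at this base.
RPL35, chr9:124861938-124861967, minus strand: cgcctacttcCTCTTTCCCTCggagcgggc
RPL27A, chr11:8682782-8682811, plus strand: gaaggccttcCTTTTTCgtctgggctgcca
RPLP2, chr11:809957-809986, plus strand: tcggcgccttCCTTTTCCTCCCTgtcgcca
RPL31, chr2:101002279-101002308, plus strand: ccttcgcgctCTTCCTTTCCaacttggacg
RPL38, chr17:74203668-74203697, plus strand: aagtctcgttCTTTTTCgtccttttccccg
RPL29, chr3:51995876-51995905, minus strand: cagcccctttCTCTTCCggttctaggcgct
RPL12, chr9:127451387-127451416, minus strand: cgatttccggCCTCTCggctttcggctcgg
RPL34, chr4:108620566-108620595, plus strand: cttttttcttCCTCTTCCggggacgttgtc
RPL35A, chr3:197950180-197950209, plus strand: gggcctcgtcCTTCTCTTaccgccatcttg
RPL3, chr22:39319604-39319633, minus strand: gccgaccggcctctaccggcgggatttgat
RPL13, chr16:89560647-89560676, plus strand: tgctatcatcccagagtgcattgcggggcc

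By this definition 25 of the 39 members (64.1%) began with a TOP-like run, compared with 4.6% of all 15843 starts. Among small subunit genes 18 of 25 starts (72%) had such a run, so it was no trait of the large subunit alone. The run is sought at the exact RefSeq start, and where it may begin within 5 bases of it, 32 members (82.1%) and 22.1% of all starts have one. Start peaks in both libraries were present in 20 of the 25 members with a run and in 5 of the 14 without, RPL3, RPL10A, RPL13, RPL19 and RPL27. Outside the members, 35 of 704 genes with a run (4.97%) and 204 of 15100 without (1.35%) had start peaks in both libraries. The start peak covers a 50 nt bin, so it does not place IGF2BP2 on the run itself. The letters GGAC, the core of the m6A consensus, were found on the transcript strand in the first 50 bases of 6 of the 39 members (15.4%) and of 19.7% of all genes, and in 3 of the 25 members with start peaks in both libraries.

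Peaks leaned toward the 5′ part of the members' gene intervals. The median peak lay 0.213 of the way along the gene in both libraries, compared with 0.515 and 0.522 over all named genes. In the part of the gene nearest its start, up to 0.2 of the way, lay 48.3% and 47.6% of member peaks, compared with 21.9% and 22.1% over all named genes. Beyond 0.8 of the way lay 11.4% and 8.97% of member peaks, compared with 22.8% and 23.3%. Position was measured along the RefSeq gene interval, introns included, and not along the mRNA. The RPL31 interval, for example, is 17436 nt long, and its last peak lay 0.231 of the way along it. Introns held 69.2% and 62.4% of all sense peaks but 10.5% and 8.5% of member peaks. The part of either in the lean was not tested.

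Genes around the polypeptide exit tunnel ran from RPL35, with the tallest shared peak of any member, to RPL17, with no sense peak under its own identifier in replicate 1. Under another identifier 4 peaks lay inside RPL17 in each library, of up to 9 and 13 tags. RPL35, RPL23A, RPL31, RPL19, RPL17, RPL26 and RPL39 encode proteins at or near the tunnel exit, where the nascent chain leaves the ribosome, and RPL4 sends a loop into the tunnel. Of these 8 genes, 5 had peaks of at least 20 tags in both libraries (62.5%, 30.6 to 86.3), an interval that overlaps that of all members (32.6%, 20.9 to 47.0), and 0.459% of protein-coding genes had them. RPL35 reached 58 and 74 tags over the same CDS bin (chr9:124861400-124861450; coordinates are those of replicate 1 throughout), ranking 2 among the 3103 genes with an overlapping peak when genes are ordered by the lower of the 2 heights. Its other peaks, at the start (18 and 23 tags) and near the end of the gene (15.5 and 13.3 tags), were also in both libraries. RPL31 repeated 4 of its 5 peaks, the tallest at 33.3 and 45.7 tags in the CDS (chr2:101004150-101004300). RPL23A shared 1 CDS peak of 33.3 and 41.5 tags (chr17:28720700-28720900). RPL4 was the member with most peaks, 11 in replicate 1 and 12 in replicate 2. All 11 RPL4 peaks of replicate 1 were overlapped in replicate 2, the tallest pair having 31 and 57 tags (chr15:66503050-66503100). RPL19 had 2 peaks in each library, the taller at 22 and 34 tags. RPL39 had a single start peak of 13 and 17 tags and RPL26 one of 6 and 6 tags.

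At the peptidyl transferase centre and the tRNA sites, peak heights ran from RPL3 down to RPL36AL. RPL3, whose protein reaches toward the peptidyl transferase centre, had 9 and 6 peaks, and its highest shared peak lay at the gene start with 36 and 49 tags (chr22:39319550-39319600, mainly CDS). RPL8 had a shared start peak of 14 and 20 tags. RPL10, a regulator of the P site and a T-ALL gene, had 4 peaks in each library, and its highest shared peak was in the CDS with 13 and 19.5 tags (chrX:154399300-154399400). RPL36A had 2 shared CDS peaks, of 6 and 17 tags and of 6 and 16 tags, and a peak of 34 tags in replicate 2 alone. RPL36AL, its near-identical paralog, had only 1 peak, of 5 tags in replicate 2. Reads that match both copies were not kept for either gene by the authors' unique mapping, and their part in these peaks was not tested.

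The stalk genes ranged from tall to low peaks. RPLP0, RPLP1 and RPLP2 form the stalk that recruits translation GTPases, and RPL12 sits at its base. RPLP2 had shared peaks of 35.5 and 36 tags (chr11:811550-811650, annotated mainly as noncoding exon), 27 and 29.3 tags in the CDS and 19 and 25 tags at the start. RPLP1 had 10.3 and 10 tags at a shared 5′UTR peak. RPLP0 was among the members with most peaks, 7 and 6, yet its highest shared peak had 12 and 7 tags. RPL12 had 1 peak per library, of 13 tags in the CDS and 5 tags in the 3′UTR, at different positions.

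The genes of subunit bridges also differed among themselves. RPL30 shared a peak of 23 and 27 tags annotated mainly as noncoding exon and a start peak of 7 and 15 tags. RPL41, which encodes the smallest ribosomal protein, had a single start peak of 7.5 and 12 tags. RPL24 shared only its start peak, of 10 and 5 tags, and had a further peak of 36 tags in replicate 2 alone.

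The T-ALL genes had no peak of 20 tags or more under their own identifiers. RPL5 and RPL11 form a particle with the 5S rRNA that also binds MDM2 and stabilises p53. RPL5 had 4 and 3 peaks, and its highest shared peak had 6.5 and 10 tags. RPL11 had 2 and 1 peaks and shared a CDS peak of 9 and 16.5 tags (chr1:23692600-23692750). RPL22, a haploinsufficient tumour suppressor in T-ALL, had no sense peak under its own identifier in replicate 1 and 1 of 7 tags in replicate 2, while a peak inside the gene under another identifier had 19 and 35 tags. By own identifiers, RPL10 was the only one of the 4 to reach 10 tags in both libraries.

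The remaining genes included RPL27A with the third rank of all genes. RPL27A had CDS peaks of 57 and 42 tags (chr11:8684000-8684050) and of 52 and 37 tags (chr11:8683200-8683250), and a start peak of 17 and 23 tags. RPL13 shared 3 peaks, the tallest at 32 and 32.8 tags (chr16:89561200-89561400). RPL38 shared its start peak of 26 and 43 tags and CDS peaks of 19 and 38.5 tags and of 12 and 22 tags. RPL29 shared 24 and 25 tags in the CDS. RPL28 had 8 and 6 peaks, with start peaks of 13 and 24 tags, and RPL10A had 6 in each library with a start peak of 11 and 16 tags. The genes RPL6, RPL7, RPL7A, RPL13A, RPL14, RPL15, RPL18, RPL27, RPL32, RPL36 and RPL37 also reached 10 tags in both libraries, with highest peaks from 13 (RPL6 and others) to 35 tags (RPL14) in replicate 1 and from 12 (RPL15) to 70 tags (RPL6) in replicate 2. RPL9, RPL21, RPL23 and RPL37A did so in 1 library only, with 19, 16, 12 and 49 tags. At the low end, RPL34 and RPL35A had no peak above 6 tags in either library. Of the first 50 genes by shared peak height 13 were members, of the first 100 genes 16 were, and of the first 200 genes 19 were. Members made up 39 of the 3103 ranked genes. Small subunit genes took 3, 8 and 14 places in the same lists.

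Peaks of the members recurred at the same positions. Of the 152 member peaks of replicate 1, 97 were overlapped by a sense peak of replicate 2 (63.8%, 55.9 to 71.0), compared with 16.6% of all sense peaks. For peaks of replicate 1 of at least 10 tags, met by a replicate 2 peak of any height, the shares were 73.8% for the members and 73.5% for all sense peaks, nearly the same value. In the other direction they were 77.7% and 62.4%. By region, 31 of 37 member peaks in the 5′UTR of replicate 1 recurred (83.8%), as did 51 of 79 in the CDS (64.6%), 5 of 16 in introns and 1 of 6 in the 3′UTR. Over all sense peaks of replicate 1 these shares were 39.4% in the 5′UTR, 45.8% in the CDS, 7.11% in introns and 15.7% in the 3′UTR, the last near that of the members (16.7%). In the 97 pairs the peak of replicate 2 was the taller in 81, with a median ratio of 1.43, close to the ratio of 1.41 over all 12357 shared sense peaks.

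**Figure D2:**
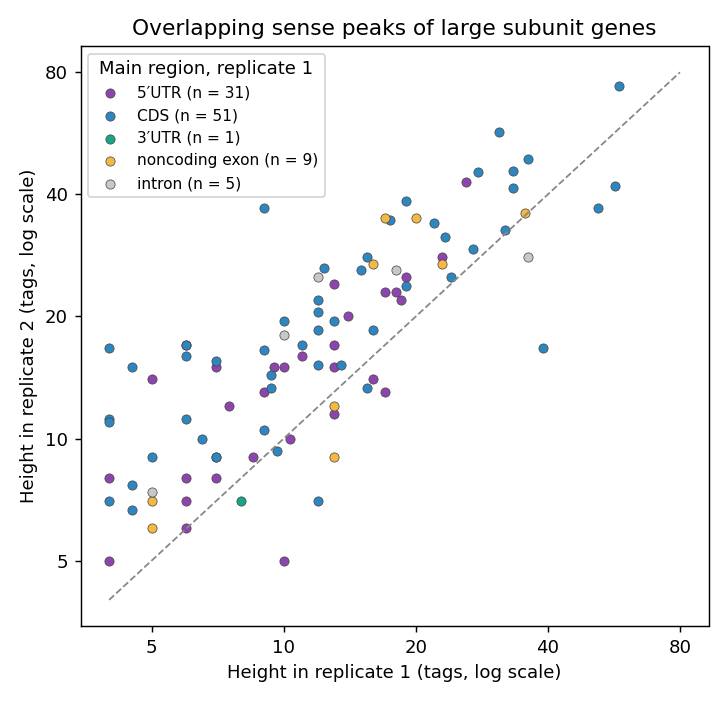
Heights in tags of the 97 large subunit sense peaks of replicate 1 that a replicate 2 peak overlaps, on log axes, coloured by main region; the dashed line marks equal height. In 81 pairs replicate 2 is the taller, and the RPL35 CDS peak is at the upper right with 58 and 74 tags.

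Some of the tallest peaks were in 1 library only. At 30 tags or more, the members had 18 peaks in replicate 1, of which 7 met no peak of the other library, and 24 in replicate 2, of which 6 met none. At 20 tags or more, 64.5% and 76% of member peaks recurred in the other library, compared with 67.8% and 75.5% of all sense peaks of that height. Examples in replicate 1 were RPL23A at its start (68 tags), RPL31 in the CDS (51 tags), RPL37A at its start (49 tags) and RPLP2 near its 3′ end (44 tags). In replicate 2 they were RPL6 (70 tags), RPL3 (48 tags) and RPL13A (41 tags), all in the CDS. Peaks that overlapped an input peak were taken out of each list by the authors, and the part of that step in these absences was not tested.

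Small subunit genes, 60S assembly factors, mitochondrial large subunit genes and paralogs were set beside the members, and of these the small subunit genes came nearest in the counts below. Of 32 small subunit genes, 29 had a sense peak in both libraries (90.6%, 75.8 to 96.8), and 22 reached 10 tags in both (68.8%, 51.4 to 82.0), close to the 67.4% of the large subunit. At 20 tags they were 6 (18.8%, 8.89 to 35.3) and at 30 tags 2, with intervals that overlap those of the large subunit, and the difference was not tested. RPS20, with a shared 5′UTR peak of 69 and 82 tags, ranked above every large subunit gene. Start peaks in both libraries were found for 14 of 25 small subunit genes with a start sequence (56.0%). Other genes tied to the 60S subunit had low peaks: 2 of 26 60S assembly factors, DDX54 (13 and 13 tags) and BOP1 (10 and 15 tags), reached 10 tags in both libraries. None of 49 mitochondrial large subunit genes did (Wilson upper limit 7.27%), although 21 (42.9%) had a peak in both, near the background of 45.6%. RPL26L1, a paralog of RPL26, had a shared CDS peak of 6 and 5 tags.

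The intronic snoRNAs of these genes were almost free of listed peaks. RefSeq places 40 snoRNA genes inside 19 members, and 2 member peaks of replicate 1 and 3 of replicate 2 overlapped one. All 5 were mainly exonic, and none of the 16 and 13 intronic member peaks lay over a snoRNA gene. SNORD139 in RPL3 was the only one covered in both libraries. Pseudogenes named for members were rarely listed either. Of 1256 such pseudogenes, 32 (2.55%) overlapped a peak of either strand in replicate 1, 49 (3.90%) in replicate 2 and 3 in both, and none reached 10 tags in both. RPL21 has the most, 137, and peaks of up to 6 and 16 tags. The number of pseudogenes was weakly related to the highest peak of the parent (Spearman's rho = -0.28 over 43 members in replicate 1 and -0.09 over 46 in replicate 2). Since only uniquely mapped reads were kept, reads that match a member and its copy are missing from both, and their part in the low peaks of some members was not tested. Peaks that overlapped an input peak are missing too, so an absent peak does not show that a snoRNA or pseudogene RNA was unbound. No share over all snoRNA genes or all pseudogenes was taken for comparison.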

How the data were processed

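Per the labels and methods, the authors aligned paired reads to GRCh38 with TopHat2, kept uniquely mapped reads, called peaks per library by ABLIRC and removed peaks overlapping input peaks. The deposited height is a signal in tags, and the deposited p-value of each peak served only as a filter. The annotation behind the regions is not given in the sources used here. Sense peaks excluded those mainly antisense or intergenic. Other identifiers were named from a RefSeq table (GRCh38.p14) where a protein-coding gene, with a margin of 1000 nt, held at least 80% of their sense or exonic sense peaks: 13269 of 20428 were. Positions were read as half-open intervals, and overlap meant at least 1 bp on the same strand. Wilson intervals (95%) cover counting error of genes or peaks only, and peaks of 1 gene are not independent. PCR copies among the tags are not independent molecules either. The CDS share was compared between the libraries by Fisher's exact test, with peaks as units. Members, lists and tests were chosen with earlier results of these data known. Named were the 10 members with the tallest shared peaks, the T-ALL genes, the 5 members with most peaks, up to 3 genes per comparison list, and others chosen after their values were seen. Overlap and naming were tested on simulated data. Tools were pandas 2.3.3 and scipy 1.17.1 under Python 3.11.15.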

Additional observations from a re-analysis of the deposited data

Results flagged for a closer look

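Peaks on the opposite strand were listed under members although they entered no comparison: 22 in replicate 1, on 13 members, and 11 in replicate 2, on 8 members. Their median height was 5 tags in both libraries, and the tallest were 16 tags on RPL19 in replicate 1 and 13 tags on RPL13 in replicate 2. They made up 12.6% and 6.71% of the sense and antisense peaks of members, compared with 28.1% and 23.0% over the whole lists. Of the 22 peaks of replicate 1, 9 lay at the position of a sense peak of the same library and 4 were overlapped by an antisense peak of replicate 2.

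Same-strand peaks inside some members carried another Ensembl identifier. RPL17 held 4 in each library under ENSG00000215472, the tallest of 9 and 13 tags, against 0 and 1 under its own. RPL22 held 2 and 5 under ENSG00000285629, with a shared 5′UTR peak of 19 and 35 tags (chr1:6197650-6197700), which is far above the 7 tags under its own identifier. RPL26 held 1 intron peak in each library, of 4 and 5 tags, under ENSG00000263809.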

How the results depend on the processing

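With peaks of at least 10 tags, member peaks per library fell from 152.5 to 87, and the mean CDS share of member peaks rose from 51.2% to 61.4%. The CDS share was 56.1% with peaks of p under 0.001, 56.5% with exonic peaks, 57.4% with peaks given by position, 53.3% with peaks of at least 5 tags, 53.5% weighted by length and 72.5% when any CDS share counted. These values moved by more than the SD between the libraries. The CDS difference between the libraries changed sign among the settings, from -5.98 to 2.77 points, with Fisher's exact p from 0.391 to 0.903. Without replicate 1 or 2, member peaks were 153 and 152, members with a peak 46 and 43 and the CDS share 50.3% and 52.0%. Members with peaks in both libraries were 31 at 10 tags, 35 at p under 0.001 and 42 by position. The overlapped share of replicate 1 ran from 62.4% (by position) to 70.0% (peaks of at least 10 tags in both lists), and the share of replicate 2 overlapped by replicate 1 was 61.4%. A p under 0.01 removed no peak. No paired analysis was possible because the input libraries, which share the replicate numbers, were not analysed here. Unknown depth limits every comparison of heights between the libraries.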
